A study of Mus musculus with 12 samples.

Results

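The Il10 cytokine cluster of mouse chromosome 1 holds 4 related cytokine genes, Il24, Il20, Il19 and Il10, followed by Mapkapk2, the gene of a stress-activated protein kinase. Its open chromatin was measured by ATAC-seq, in which a transposase cuts DNA wherever chromatin is open, and described as 36 accessible regions out of 76042 in the genome. Peaks of all 12 libraries that overlapped or touched were merged, regions present in at least 2 libraries were kept, and those within 50 kb of the span of 1 of these 5 genes were taken. The regions were therefore taken by position and by a call in any 2 libraries, so some were kept through LPS libraries alone. The 5 genes were chosen with earlier results of these data known.

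The cells were RAW264.7, an established mouse macrophage line, in which a stably introduced transgene makes either Nur77, the nuclear receptor encoded by Nr4a1, or green fluorescent protein (GFP) when doxycycline is given. All 12 libraries, controls included, came from cells given 1 µg/ml doxycycline for 18 h, and no library without it was used here. The 4 groups were the GFP line without lipopolysaccharide (LPS, a bacterial endotoxin), the GFP line after 1 h of 500 ng/ml LPS, the Nur77 line without LPS and the Nur77 line after the same LPS treatment, with 3 libraries each. The labels name 1 line for each transgene, do not say whether it is a single clone, and give no origin of the replicates beyond a number, so p-values measure the spread between these libraries, which may be technical.

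Interleukin-10 is the main anti-inflammatory cytokine of macrophages, signals through JAK1, TYK2 and STAT3, and is made late in the response to LPS to limit it. Interleukins 19, 20 and 24 are its close relatives and act mostly on epithelial cells through receptors that share the Il20rb chain. Mapkapk2 encodes MK2, a kinase switched on by p38, which protects cytokine mRNAs from decay by phosphorylating the mRNA-binding protein tristetraprolin (Zfp36).

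Gene spans are from RefSeq for GRCm38.p6, the same assembly as the mm10 build of the peak lists. Il24 lies at chr1:130882074-130887411, Il20 at chr1:130906985-130911296, Il19 at chr1:130932656-130945457, Il10 at chr1:131019845-131024970 and Mapkapk2 at chr1:131053700-131097871. Mapkapk2 is on the minus strand, so its 3′ end faces the 3′ end of Il10 across 28.7 kb. RefSeq promoter sequences, 250 bases before to 50 bases after the start, were at hand for Mapkapk2 (chr1:131097794-131098093), Il19 (chr1:130940066-130940365) and Il20 (chr1:130911247-130911546), all on the minus strand. They are shown because they hold the extremes of the cluster, a start that was open in every library and starts with no peak in any. Capitals mark matches to the motifs searched on both strands, which were AP-1 TGANTCA, the cyclic AMP element TGACGTCA, the Nur77 element AAAGGTCA, NF-kB (by its consensus), PU.1 GAGGAAGT, the GC box GGGCGG and the STAT element TTCNNNGAA.
Mapkapk2: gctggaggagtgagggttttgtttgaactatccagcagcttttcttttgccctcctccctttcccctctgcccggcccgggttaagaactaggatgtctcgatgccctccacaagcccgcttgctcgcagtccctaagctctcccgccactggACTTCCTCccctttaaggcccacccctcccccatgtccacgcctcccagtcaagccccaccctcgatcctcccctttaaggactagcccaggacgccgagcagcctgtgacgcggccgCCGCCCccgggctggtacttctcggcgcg
Il19: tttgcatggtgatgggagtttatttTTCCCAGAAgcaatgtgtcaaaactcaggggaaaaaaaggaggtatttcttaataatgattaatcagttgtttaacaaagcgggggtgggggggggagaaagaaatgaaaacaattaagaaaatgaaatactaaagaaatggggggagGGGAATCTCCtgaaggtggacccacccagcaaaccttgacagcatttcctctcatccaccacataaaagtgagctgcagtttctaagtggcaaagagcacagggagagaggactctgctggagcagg
Il20: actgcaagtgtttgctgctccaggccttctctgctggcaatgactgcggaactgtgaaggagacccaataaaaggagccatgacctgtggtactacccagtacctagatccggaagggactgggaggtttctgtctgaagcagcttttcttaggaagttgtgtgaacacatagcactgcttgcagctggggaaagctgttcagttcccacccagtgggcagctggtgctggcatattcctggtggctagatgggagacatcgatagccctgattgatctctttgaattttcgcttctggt
The Mapkapk2 promoter was rich in CpG, with 18 CpG and 63.3% GC in its 300 bases, and all 12 libraries had peaks on it, which shared 215 of those bases. It held a PU.1 match 97 bases before the start and a GC box 21 bases after it. The Il19 promoter held 1 CpG and 44% GC, with a STAT match 225 bases and an NF-kB match 77 bases before the start. The Il20 promoter held 4 CpG and 51.3% GC and none of the 7 motifs. Of the 32851 promoters in the RefSeq table, 3.2% held a PU.1 match, 35.7% a GC box, 4.51% NF-kB, 8.3% STAT, 7.81% AP-1, 1.79% the cyclic AMP element and 1.51% the Nur77 element. Peaks lay on 34.1% of these promoters in all 12 libraries, with a median of 22 CpG, and on 56.9% in none, with a median of 4 CpG. A match describes the letters of these windows and is not a measured binding site.

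The 12 lists held 36184 to 81467 peaks. Read totals are not part of them, but each fold value is the summit's reads plus 1 over a background height plus 1, and that height, 0.402 to 1.45 reads, gave a relative depth. The shallowest libraries were Nur77 untreated replicate 2 (0.402) and GFP LPS replicate 1 (0.411), and the deepest was GFP LPS replicate 3 (1.45). Peaks covered 51.4 ± 12.5 Mb of the regions of the genome in the LPS libraries and 50.9 ± 8.79 Mb in the untreated ones (SD, n = 6 each). All 8 macrophage marker genes had a region near an end that was called in every library, against 1 of 4 T cell markers (Cd3d), 1 of 4 B cell markers (Cd79a), 1 of 4 fibroblast markers (Col1a1) and 0 of 4 epithelial markers.

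Of the 36 regions, 13 (36.1%) were called in all 12 libraries, beside 34.7% of all regions of the genome. A further 2 were called in 9 to 11 libraries, 10 in 4 to 8 and 11 in 2 or 3. In these bulk libraries, a site open in more cells and a site more open in each cell cannot be told apart. The regions were not spread evenly. All 13 constant regions lay between Il10 and Dyrk3, on the far side of Mapkapk2, and 13 of the 36 overlapped a member gene, which was Il10 or Mapkapk2 in each case.

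**Figure D1:**
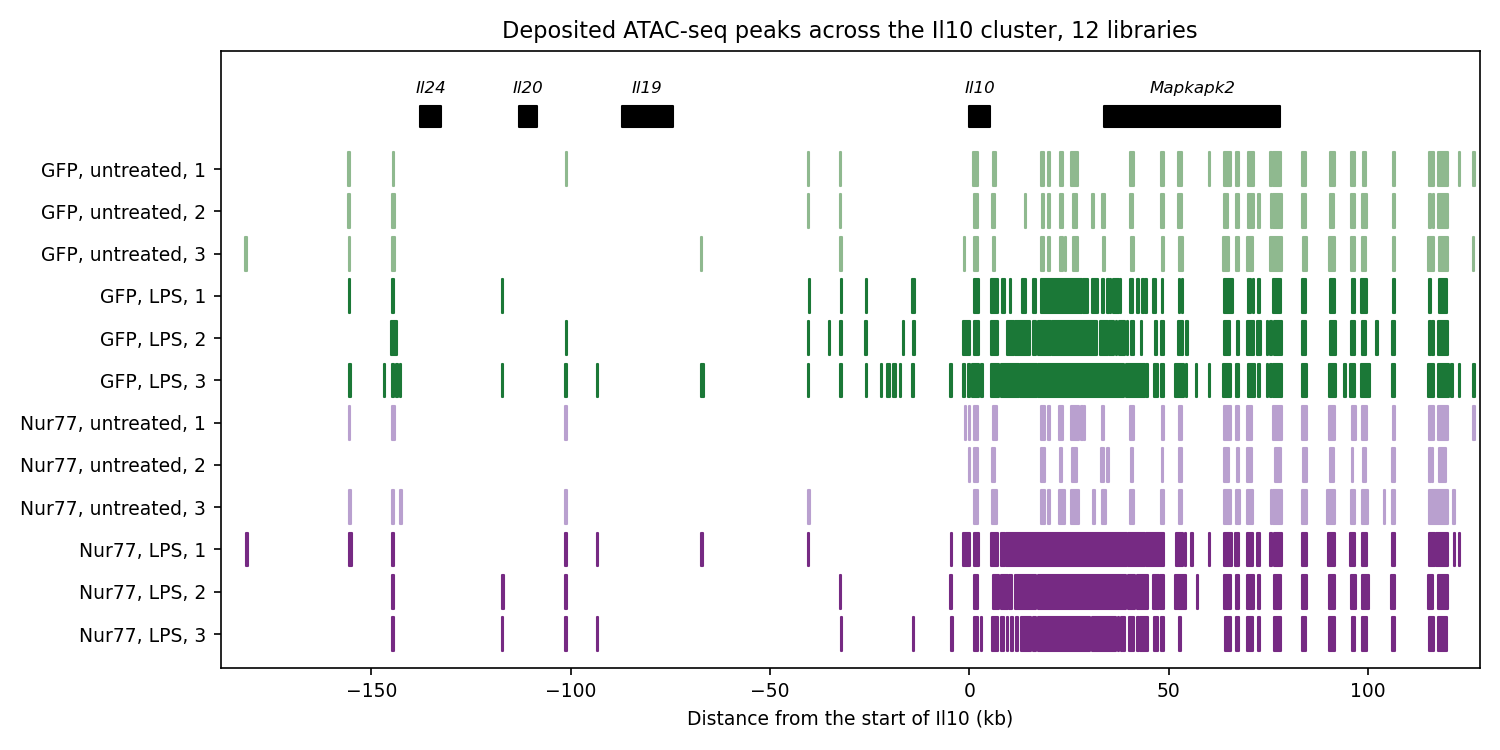
Each row is 1 library and each coloured block a deposited peak, plotted by distance in kb from the start of Il10, with the spans of the 5 genes in black at the top. Blocks are sparse on the left around Il24, Il20 and Il19. In a broad domain between Il10 and Mapkapk2 they are wider and fill more of the space in the 6 LPS libraries than in the untreated ones. The domain holds 4 to 18 peaks in each LPS library and 6 to 9 in each untreated one.

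Il19, Il20 and Il24 had no called peak in these cells. No library of any group had a peak inside these 3 genes or within 1 kb of either end of them. The nearest region to Il24 was chr1:130877074-130877594, 4.5 kb away inside Fcmr, the gene of an IgM receptor, and it was called in 2 of 12 libraries. The next, 5.7 kb away in the same gene (chr1:130874883-130876392), was called in 11 of 12. Il20, whose product signals to keratinocytes, had its nearest region 4.0 kb away at chr1:130902513-130903009. This region was called in 4 of 6 LPS libraries (GFP replicates 1 and 3, Nur77 replicates 2 and 3) at percentiles of 42.4, 47.4, 38.3 and 15.1 within their lists, and in 0 of 6 untreated ones. A percentile here is the rank of the strongest peak of a region by -log10 q within its own list, with 100 the strongest. Between Il20 and Il19, the region at chr1:130918387-130918882 was called in 5 of 6 LPS and 3 of 6 untreated libraries, and the one at chr1:130926456-130926744, 5.9 kb from Il19, in 3 of 6 LPS and 0 of 6 untreated libraries.

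Upstream of Il10 the calls were weak and differed between groups. Il10 itself, the anti-inflammatory cytokine gene, had a region across its start (chr1:131018254-131020058) that was called in 6 of 12 libraries, 1 untreated and 2 LPS libraries of the GFP line and 2 untreated and 1 LPS library of the Nur77 line. Its percentiles were 13.9 in GFP untreated replicate 3, 17.7 and 35.0 in GFP LPS replicates 2 and 3, 15.8 and 11.4 in Nur77 untreated replicates 1 and 2, and 20.7 in Nur77 LPS replicate 1, on summits of 7 to 17 reads. The start of Il10 thus ranked low wherever it was called, and its calls were split evenly, 3 of 6 against 3 of 6, by treatment and by line.

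4 regions within 32 kb upstream of Il10 separated at least 1 pair of groups completely. The region 25.6 kb upstream (chr1:130993618-130994272) was called in the 3 GFP LPS libraries, at percentiles of 15.5, 22.9 and 29.5, and in none of the other 9. The region 13.7 kb upstream (chr1:131005477-131006157) was called in the 3 GFP LPS libraries at 42.4, 51.0 and 43.8 and in Nur77 LPS replicate 3 at 19.9, and in no untreated library. The region 4.2 kb upstream (chr1:131015033-131015636) had the opposite balance of lines. It was called in the 3 Nur77 LPS libraries at 17.3, 17.8 and 34.0 and in GFP LPS replicate 3 at 23.0, and again in no untreated library. The region 31.9 kb upstream (chr1:130987372-130987976) was called in all 6 GFP libraries, at 46.3, 48.8 and 31.3 untreated and 46.1, 27.3 and 52.0 after LPS, in 0 of 3 Nur77 untreated libraries, and in Nur77 LPS replicates 2 and 3 at 21.3 and 36.9. All of these peaks were small, with summits of 7 to 26 reads.

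**Figure D2:**
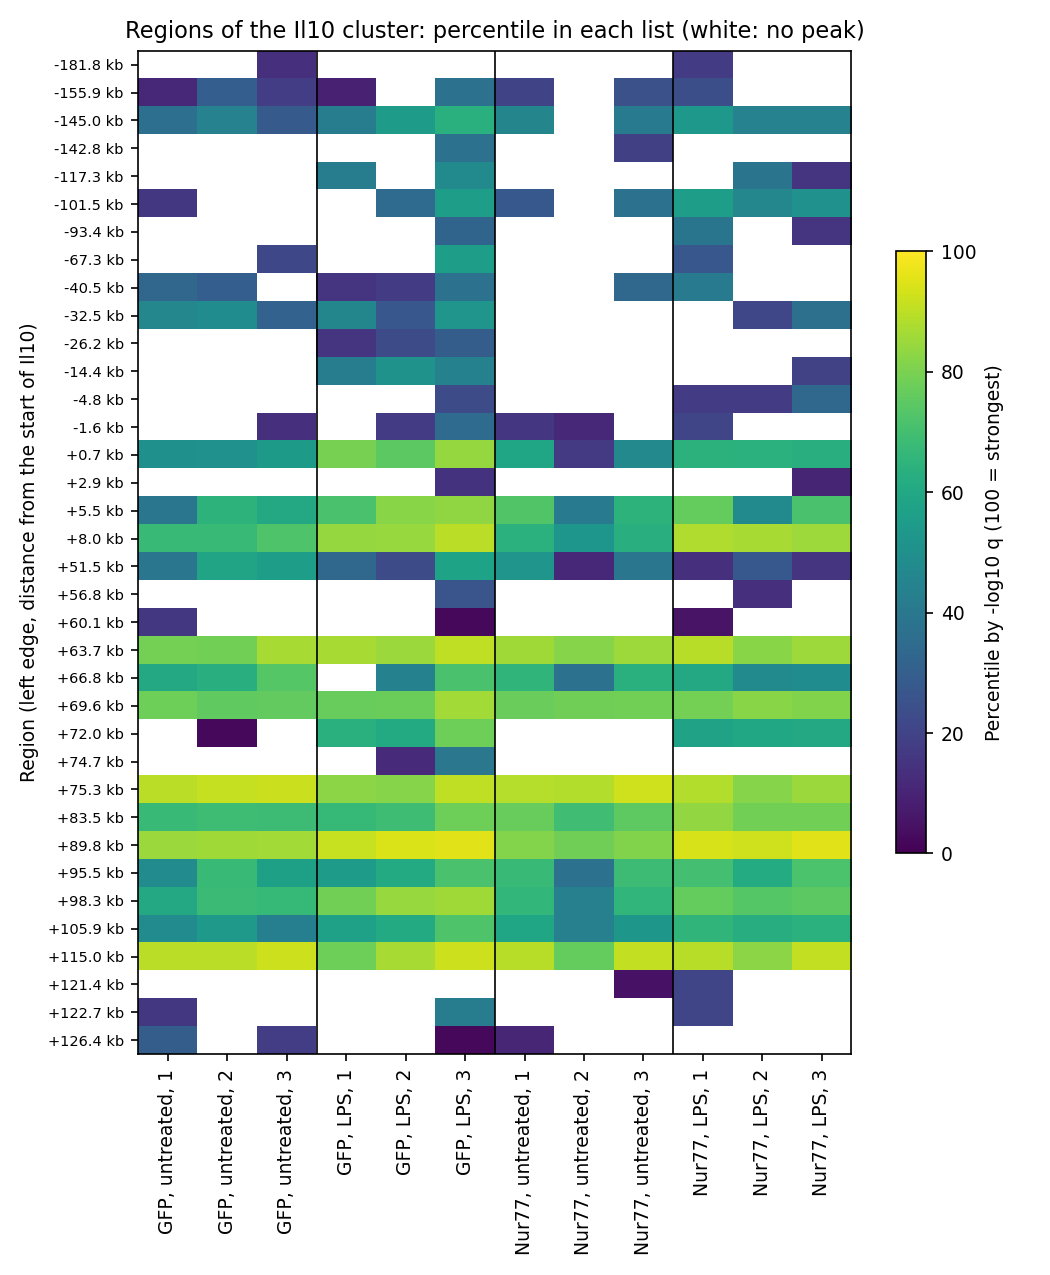
Rows are the 36 regions, named by the distance in kb of their left edge from the start of Il10, and columns the 12 libraries. Colour gives the percentile of the region within the list of that library, and white means no peak. The lower rows, from Il10 to the far side of Mapkapk2, are filled in nearly every column, while the upper rows hold scattered calls at low percentiles.

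Counted over the cluster, a region was gained when all 3 libraries of one group called it and 0 of 3 in the group compared, and lost in the reverse case. LPS gained 2 of 36 regions in the GFP line, the ones 25.6 and 13.7 kb upstream of Il10, where 1.96% of all regions were gained, and lost 0, where 1.02% were lost. In the Nur77 line LPS gained 2, the one 4.2 kb upstream of Il10 and one inside Mapkapk2 (chr1:131091874-131092949), beside 1.94% of all regions, and lost 0, beside 0.46%. Nur77 against GFP gained 0 regions without LPS (0.308% of all regions) and lost 1, the one 31.9 kb upstream (3.4%). After LPS it gained 0 (0.304%) and lost 1, the one 25.6 kb upstream (2.18%). No test goes with these counts, because 3 libraries against 3 cannot give an exact two-sided p below 0.1, and a count of 1 or 2 regions sets nothing apart from the background. In lists cut to equal length LPS gained 1 region in each line, in both the one inside Mapkapk2. The gains 25.6, 13.7 and 4.2 kb upstream of Il10 did not hold there, and both losses in the Nur77 line were 0.

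The gained region inside Mapkapk2, 66.9 kb from Il10, had the lowest Fisher p of the cluster. It was called in all 6 LPS libraries, at percentiles of 63.5, 61.0 and 77.9 in GFP and 57.6, 59.6 and 60.5 in Nur77, with summits of 20 to 66 reads. Among the untreated libraries it was called in GFP replicate 2 only, at a percentile of 2.26 and a summit of 7 reads. A two-sided Fisher's exact test of 6 LPS against 1 untreated library of 6 each gave p = 0.0152, and Benjamini-Hochberg adjustment over the 20292 regions called in 4 to 8 libraries gave 0.215. In lists of equal length, where the weak untreated peak dropped out, the calls were 6 of 6 against 0 of 6 and the region passed (Fisher's exact test, adjusted p = 0.0342). It was 1 of the 3 regions of the cluster that could be tested there, beside 5.33% of all 10396 such regions called more often after LPS, and 0 of the 3 were called less often, beside 1.0%. No region of the cluster passed for LPS among the strongest 20000 peaks of each list or at a -log10 q of at least 5.

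10 regions of the cluster could enter that test. With the lists as deposited, 0 passed Fisher's exact test after adjustment for LPS or for the line, and the same held for all 20292 regions, whose lowest adjusted p were 0.0935 and 0.0923. At an unadjusted p under 0.05, 1 of the 10 was called more often after LPS, beside 5.56% of all tested regions, and 0 less often, beside 1.48%. For Nur77 against GFP 0 were called more often, beside 0.651%, and 0 less often, beside 7.32%. The regions 4.0 kb from Il20, 13.7 kb and 4.2 kb upstream of Il10, with 4 of 6 LPS against 0 of 6 untreated libraries, each gave p = 0.0606 by Fisher's exact test. The region 31.9 kb upstream, with 2 of 6 Nur77 against 6 of 6 GFP libraries, gave the same exact p.

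Per library, more of the cluster was called after LPS. In the GFP line, 22, 19 and 21 of its regions were called without LPS and 21, 23 and 34 with it. The Nur77 line had 19, 15 and 20 without LPS and 27, 21 and 23 with it. The LPS libraries averaged 24.8 ± 5.00 and the untreated 19.3 ± 2.42 (SD, n = 6 each), with overlap between 21 and 22. An exact two-sided permutation test over all 400 relabellings within lines gave p = 0.02 for this difference of 5.5 regions, or 0.04 adjusted over the tests of LPS and of line. Regions kept through LPS libraries alone, such as those 25.6 and 13.7 kb upstream of Il10, could add calls only to the LPS side. The test is therefore not independent of how the regions were kept. GFP LPS replicate 3, the deepest library, called the most, and without it the difference was 3.5 with an adjusted p of 0.08 by the same exact test. The call was lost in 8 of the 12 fits that left out 1 library, with adjusted p from 0.01 to 0.16. The Nur77 libraries averaged 20.8 ± 4.02 and the GFP libraries 23.3 ± 5.39, which was less than the spread between libraries (exact permutation p = 0.36), and the LPS response of the lines differed by 0.333 regions (exact permutation p = 1).

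The length under peaks separated the treatments completely. In the GFP line, peaks covered 26033, 24890 and 26917 bp of the cluster without LPS and 41970, 55599 and 71711 bp with it. In the Nur77 line they covered 27852, 19086 and 32305 bp without LPS and 69663, 61830 and 52275 bp with it. The mean rose from 26181 ± 4310 bp to 58841 ± 11224 bp (SD, n = 6 each), while the length covered over the whole genome was nearly the same in both treatments. The exact two-sided permutation test gave p = 0.005, the smallest that 400 relabellings allow, or 0.01 adjusted. Covered length was planned as an alternative to the test of calls per library. Most of the increase lay in 1 region, the domain described below, which was picked out after its peaks had been seen. The p-value therefore rests mostly on that region, and without it the adjusted p was 0.12 by the same exact test. The lines differed by 2649 bp (exact permutation p = 0.62), and their LPS responses by 4362 bp (exact permutation p = 0.7).

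Of this increase, 81.3% fell in a single merged region between Il10 and Mapkapk2 (chr1:131027814-131068717), called the domain here. As merged here it is 40904 bp wide, the second widest of all 76042 regions after one of 43820 bp, and starts 2.8 kb past the end of Il10. Its first 25886 bp lie between the genes and the other 15018 bp inside the 3′ part of Mapkapk2. The domain was picked out after its peaks had been seen, so its covered length is given without a test of its own.

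Peaks covered 5239, 5620 and 5614 bp of the domain in GFP untreated and 22110, 28567 and 37219 bp in GFP LPS. They covered 6890, 4978 and 8271 bp in Nur77 untreated and 39883, 36872 and 31251 bp in Nur77 LPS. Every LPS library was above every untreated one, and the shallowest LPS library (GFP replicate 1, background height 0.411) covered more of the domain than the deepest untreated one (Nur77 replicate 3, 1.254). The mean covered length was 5.34-fold higher after LPS in the GFP line and 5.36-fold higher in the Nur77 line. In lists of equal length the ratio over both lines was 6.57, beside 5.35 in the lists as deposited. The increase of 26548 bp was the largest of all 76042 regions and 1.90 times the next, and it also ranked first in the equal-length lists, at 25141 bp. LPS peaks set the width of the domain, so this rank and ratio depend on the merge. Without Nur77 LPS replicate 1 in the merge, the widest region of the cluster was 27736 bp. Nur77 LPS averaged 36002 ± 4381 bp and GFP LPS 29299 ± 7581 bp (SD, n = 3 each), and their values overlapped.

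**Figure D3:**
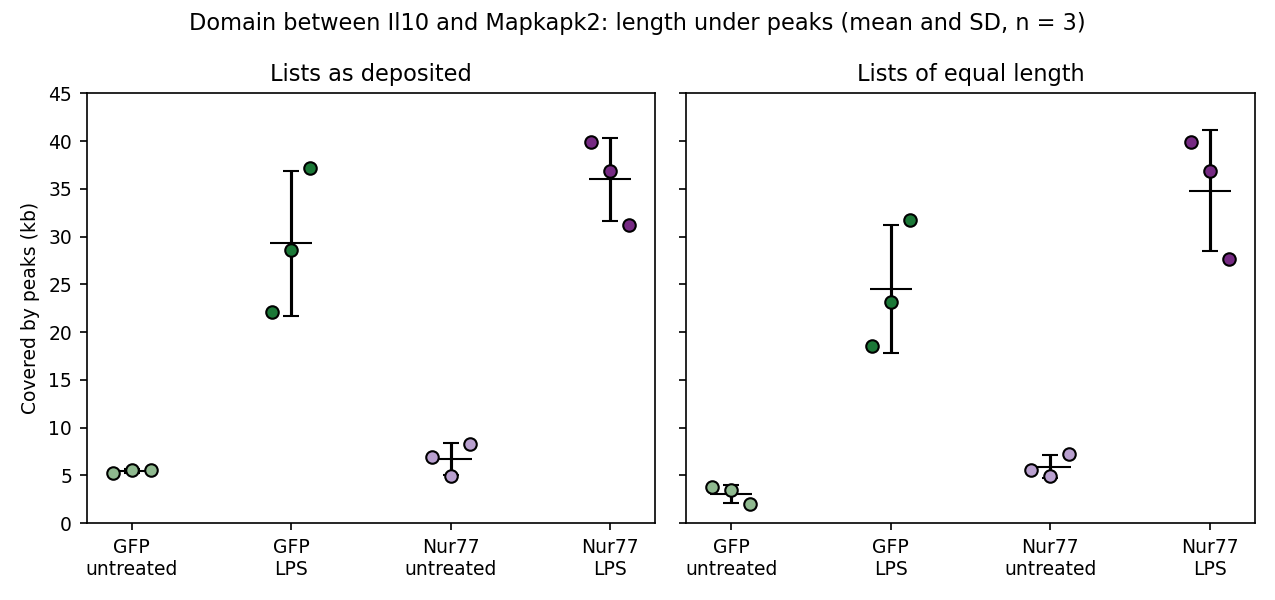
Points are the 3 libraries of each group, with the mean as a horizontal line and the SD as an error bar, and the vertical axis is the length of the domain under peaks in kb. In the lists as deposited (left) the 6 LPS libraries sit between 22110 and 39883 bp and the 6 untreated between 4978 and 8271 bp, and the groups stay apart in the lists of equal length (right).

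The shape of the domain changed as well as its length. Untreated libraries had 6 to 9 separate peaks in it, none wider than 2008 bp, with 6 to 11 summits. LPS libraries had 4 to 18 peaks, the widest of each 10137 to 30295 bp, with 33 to 61 summits. The covered share was 12.2% to 20.2% without LPS and 54.1% to 97.5% with it. It was larger between the genes, 63.1% to 98.8% after LPS against 13.8% to 23.6% without, than inside Mapkapk2, where it was 38.4% to 95.2% against 9.12% to 14.4%.

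In every library the highest summit of the domain lay in an interval that was under a peak in all 12. It lay 18.4 or 18.5 kb from the start of Il10 in 5 of 6 untreated and 3 of 6 LPS libraries, and 23.0 kb from it in 1 untreated (Nur77 replicate 1) and 2 LPS libraries (GFP replicate 3 and Nur77 replicate 3). In Nur77 LPS replicate 2 it lay at 26.4 kb. Within the domain 5 intervals, 2799 bp together, were under a peak in all 12 libraries, at 18.2 to 18.7, 22.7 to 23.3, 26.0 to 27.0, 40.5 to 41.0 and 48.4 to 48.7 kb from the start of Il10. Around and between them, 17 intervals totalling 8339 bp were under a peak in all 6 LPS and no untreated library, the widest 1827 bp at chr1:131040525-131042351. No interval of the cluster had the reverse pattern.

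**Figure D4:**
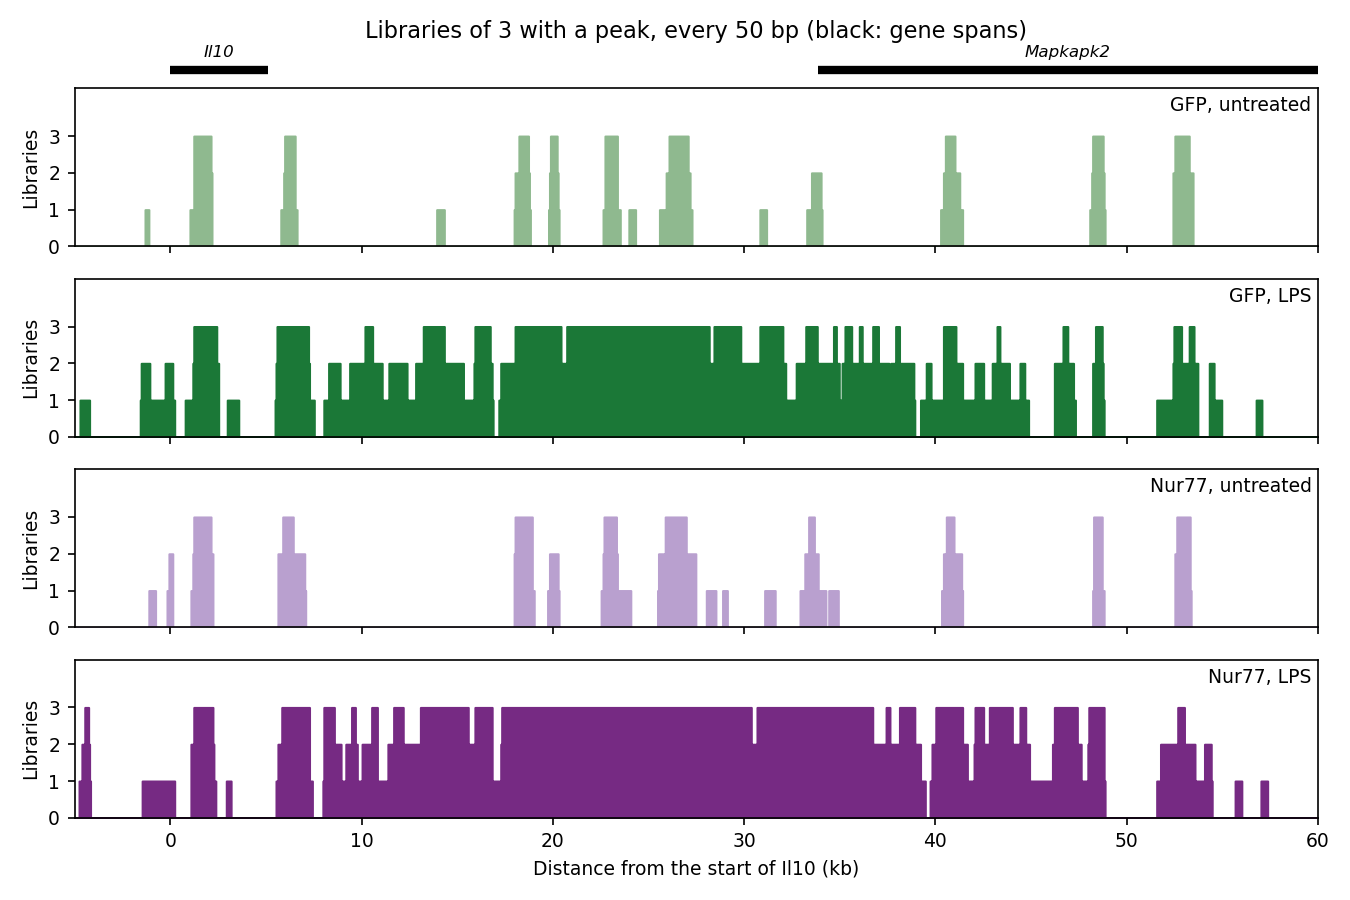
Each panel is 1 group, the horizontal axis is the distance in kb from the start of Il10, and the height is the number of libraries, of 3, with a peak at that point. Untreated cells of both lines show narrow shared peaks, and after LPS peaks also fill the space between them in both lines.

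Because 1 merged region holds this whole domain, the gained calls were also counted over tiles of 500 bp, a unit added after the domain had been seen. Of the 76 tiles in the domain, 25 were gained with LPS in the GFP line, beside 1.84% of all tiles, and 38 in the Nur77 line, beside 1.85%. In both lines together, 17 tiles (22.4%) were covered in all 6 LPS and no untreated library, beside 0.599% of all tiles. The reverse pattern was seen in 0, beside 0.101%. LPS peaks join the parts of the domain into 1 region, so a high share of gained tiles in it follows from how it was drawn. Over the whole cluster, 17 of 146 tiles were covered in all 6 LPS and no untreated library. These were the same 17 tiles of the domain, with 0 outside it. A tile was taken as covered at 50% or more. The tiles counted also depend on the peaks, with 146 in the lists as deposited and 129 in equal-length lists, so this count is not separate support. Nur77 against GFP gained 1 tile of the domain without LPS (0.444% of all tiles) and 0 after LPS (0.337%), and lost 0 in either case (2.36% and 1.55%). The difference between the lines was not tested over tiles.

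Outside the domain the covered length was 26191 ± 5492 bp after LPS and 20079 ± 3309 bp without (SD, n = 6 each). The exact permutation test gave p = 0.06, or 0.12 adjusted over the tests of LPS and of line. The LPS and untreated libraries did not overlap in 3 of 36 regions, all with more length after LPS, beside 1.66% of all regions. These were the domain, a region inside Il10 and one just past its 3′ end. None of the 36 had less in all 6 LPS libraries, beside 0.408% of all regions. In equal-length lists the regions with more were 4, the gained region inside Mapkapk2 being added, beside 1.45% of all, and 0 had less, beside 0.442%. With an exact permutation test adjusted over all 76042 regions none passed, the lowest adjusted p being 0.168, and 4 of the 36 had an unadjusted p under 0.05, beside 9.54% of all regions.

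The region inside Il10 (chr1:131020582-131022370) was called in all 12 libraries. It covered 1097, 949 and 946 bp in GFP untreated and 1292, 1215 and 1789 bp in GFP LPS. In the Nur77 line it covered 1023, 1028 and 1019 bp untreated and 1129, 1148 and 1229 bp after LPS. The LPS values were all higher, by a small margin in the Nur77 line. The region 0.3 kb past the end of Il10 (chr1:131025302-131027343) covered 678, 720 and 566 bp without LPS and 1751, 1690 and 2042 bp with it in the GFP line. In the Nur77 line it covered 1182, 777 and 1407 bp without LPS and 1745, 1599 and 1637 bp with it. In both regions, as in the domain, every LPS library covered more than every untreated one.

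Strength within a list was compared for regions called in all 12 lists after each had been cut to its 36184 strongest peaks, since ranks in lists of different lengths are not on 1 scale. The cluster had 11 such regions of 21752. With LPS, 4 of the 11 ranked higher, beside 10.3% of all tested regions, and 1 ranked lower, beside 12.2%, by the exact permutation test with Benjamini-Hochberg adjustment over all 21752 regions (adjusted p = 0.0288 for each of the 5, the lowest of any region). At an unadjusted p under 0.05 there were 7 of 11, beside 36.2% of all regions.

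The region inside Il10 moved the most. Its percentiles went from 25.1, 11.5 and 18.3 to 72.8, 60.1 and 64.8 in GFP and from 36.7, 16.9 and 18.8 to 40.8, 55.4 and 45.5 in Nur77, a mean rise of 35.4 points. The domain rose by 32.0 points, from 51.4, 41.3 and 50.5 to 79.0, 76.0 and 76.9 in GFP and from 44.3, 52.7 and 43.2 to 80.5, 84.0 and 78.7 in Nur77. Treatments did not overlap in either region. The region just past the 3′ end of Il10 went from 8.39, 36.8 and 28.6 to 61.5, 72.2 and 63.0 in GFP, and was 58.4, 40.8 and 46.1 untreated and 60.7, 35.6 and 57.8 after LPS in Nur77. Its mean difference of 22.0 points did not pass (exact permutation test, adjusted p = 0.124), and in the Nur77 line the treatments overlapped.

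Mapkapk2, the MK2 kinase gene, had 3 regions in this test besides the domain, and the region across its start went the other way. The region across the start (chr1:131095147-131098284), which holds the CpG-rich promoter printed above, had percentiles of 84.6, 84.4 and 85.3 in GFP untreated and 77.0, 71.5 and 78.8 in GFP LPS. In Nur77 they were 82.7, 88.3 and 89.1 untreated and 80.7, 77.5 and 78.3 after LPS. It fell by 8.43 points and the treatments did not overlap, with no percentile under 71.5, and its covered length did not separate the treatments. Its strongest summit lay 77.2 or 77.6 kb from the start of Il10 in the untreated libraries and 78 kb from it in the LPS libraries. The fall thus compares different summits of 1 region and does not show that the start itself became weaker. The other regions inside Mapkapk2, at chr1:131083513-131086055 and chr1:131089469-131091386, ranked at 78.5 to 90.4 and 75.7 to 86.0 in the lists as deposited, were called in all 12 libraries, and did not pass for LPS (exact permutation test, adjusted p = 0.17 and 0.35).

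Beyond the start of Mapkapk2 a run of 6 constant regions leads to Dyrk3, the gene of another protein kinase. With LPS 2 of them rose in rank, and 1, called in 11 of the 12 equal-length lists, could not be tested. The region 11.8 kb upstream of Mapkapk2 (chr1:131109663-131111828) was among the strongest of the cluster. Its percentiles went from 77.1, 74.3 and 74.9 to 88.7, 91.3 and 90.1 in GFP and from 71.6, 78.4 and 71.2 to 90.1, 90.9 and 93.4 in Nur77, a rise of 16.2 points without overlap. The region 20.3 kb upstream (chr1:131118153-131120422) rose by 23.8 points, from 40.2, 42.7 and 40.8 to 71.6, 75.4 and 67.6 in GFP and from 47.9, 43.7 and 47.9 to 60.7, 67.2 and 63.1 in Nur77. The region at Dyrk3 (chr1:131134858-131140050) ranked at 76.4 to 92.4 in the lists as deposited and did not differ beyond the spread between libraries (exact permutation test, adjusted p = 0.531).

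**Figure D5:**
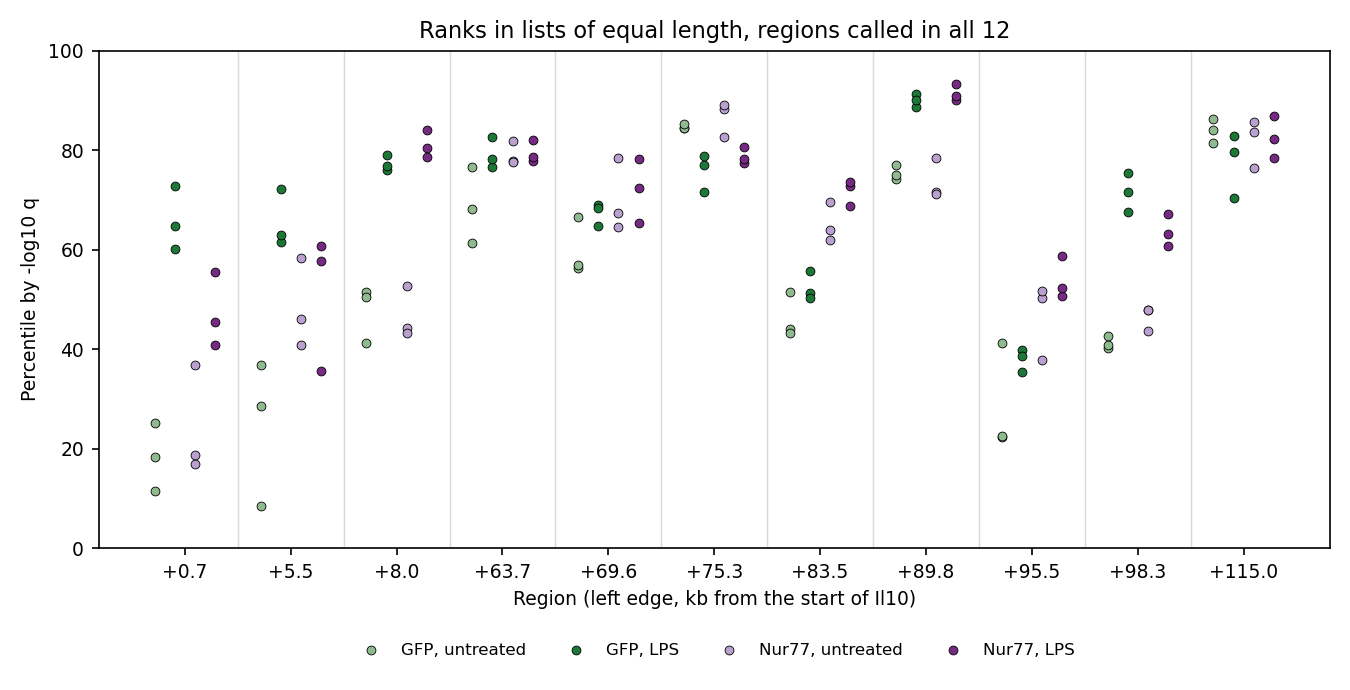
The 11 regions called in all 12 equal-length lists stand in genome order along the horizontal axis, named by the distance in kb of their left edge from the start of Il10, and each point is the percentile of 1 library. At +0.7, +8.0, +89.8 and +98.3 kb the LPS points of both lines lie above the untreated points. At +75.3 kb, the region across the start of Mapkapk2, the LPS points lie below.

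These rank calls depended on the settings. In the lists as deposited all 4 higher regions had an adjusted p of 0.0542 by the exact permutation test. The region across the start of Mapkapk2 had 0.148 by the same test, and the directions were the same. Leaving out Nur77 LPS replicate 2 or 3 took the region inside Il10 to an adjusted p of 0.051 or 0.0514 (exact permutation test). The region across the start of Mapkapk2 went to the same values.

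The lines differed in rank at 1 region. The region 5.4 kb upstream of Mapkapk2 (chr1:131103317-131104627) had percentiles of 51.4, 44.0 and 43.2 without LPS and 55.7, 51.4 and 50.3 with it in the GFP line. In the Nur77 line they were 64.0, 69.5 and 62.0 without LPS and 72.9, 73.5 and 68.8 with it. All 6 Nur77 libraries were above all 6 GFP libraries, by 19.1 points on average (exact permutation test, adjusted p = 0.0477). It was the 1 region of 11 that ranked higher in Nur77, beside 4.47% of all regions, and 0 ranked lower, beside 6.01%. The call did not hold in the lists as deposited, with an adjusted p of 0.0595, or in any of the 12 fits that left out 1 library, with adjusted p of 0.0503 to 0.0654 (exact permutation tests). The neighbouring region 17.5 kb upstream (chr1:131115377-131116815), inside Gm51643, differed by 16.9 points in the same direction and did not pass (adjusted p = 0.0706 by the same exact test).

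No region of the cluster, and none of the 21752, passed the test of whether the lines responded differently to LPS, with 0.0% called higher and 0.0% called lower and a lowest adjusted p of 0.997 by exact permutation. At an unadjusted p under 0.05 there were 3 of 11, beside 4.27% of all regions. These were the region inside Il10, the one just past its 3′ end and the one 20.3 kb upstream of Mapkapk2, whose LPS responses were smaller in Nur77, with differences of responses, Nur77 minus GFP, of -24.5, -38.01 and -13.2 points (exact permutation p = 0.045, 0.005 and 0.005). The domain between them differed by 4.79 points in the other direction (exact permutation p = 0.33). These smaller responses depended on the lists. By the same exact test, 0 of 13 regions of the cluster had an unadjusted p under 0.05 in the lists as deposited, and 0 of 5 among the strongest 20000 peaks.

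The genes that signal for or control the cluster were counted the same way, by regions within 50 kb that were gained or lost. Near 16 genes of factors known to act on Il10, LPS gained 15 of 210 regions (7.14%) in the GFP line and 11 (5.24%) in the Nur77 line, in both lines near Nfkb1 and Rel, genes of NF-kB subunits, Nfe2l2, the gene of the antioxidant factor NRF2, and Batf, an AP-1 family gene. Nfkb1 alone held 10 of the 15 and 6 of the 11, and 12 of the 16 genes had none in either line. It lost 2 regions in the GFP line, near Nfe2l2 and Junb, and 1 in the Nur77 line, near Atf1. Near 14 genes of IL-10 family signalling LPS gained 2 of 207 regions in each line, near Il20rb and Etv3 in GFP and near Il10rb and Jak1 in Nur77, and lost 1, near Socs3, and 0. Near 15 genes of the p38 and MK2 pathway it gained 4 of 206 regions in the GFP line, near Mapkapk3, Map2k3, Map2k6 and Dusp1, and 2 in the Nur77 line, near Mapkapk3 and Map2k6, and lost 2, both near Tab1, and 0. Nur77 against GFP lost 9 regions without LPS in the list of Il10 factors, 9 in the p38 list and 4 in the signalling list, and gained 0, 0 and 1. After LPS it lost 5, 2 and 3 and gained 0, 0 and 1. Of the losses without LPS, Batf, on chromosome 12, held 4 of the 9 near Il10 factors. In the p38 list Rps6ka5, also on chromosome 12, and Zfp36 held 2 each of the 9. Over all regions, 1.96% and 1.94% were gained and 1.02% and 0.46% lost with LPS in the GFP and Nur77 lines. With Nur77, 0.308% and 0.304% were gained and 3.4% and 2.18% lost, without and with LPS.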

How the data were processed

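ATAC-seq peak lists of 12 libraries, 4 groups of 3 by title, were used, 1 list per library. Per the submitters' processing notes, the mm10 build was used with cutadapt 2.6 and DiffBind 3.0.15. Neither the aligner nor the peak caller is named, so both are not given in the sources here. The deposited peak names carry a q value of 0.001, a mapping quality of 20 and the removal of duplicate and mitochondrial reads. Each peak has a score, a whole number deposited by the authors. The fold is the authors' enrichment of a summit over background, as a ratio, and the -log10 p and -log10 q are the authors' values at the summit. These values were used only within a list.

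Duplicate rows of 1 peak were collapsed. Peaks overlapping or touching were merged into 100374 regions, and 76042 in at least 2 lists were kept. A call needed an overlap of at least 1 bp, and coordinates are 1-based. Background height is the value that makes every fold, times this height plus 1, a whole number within 0.1 reads, which is the summit's reads plus 1. Calls per library, covered length and ranks were tested by exact two-sided permutation within line or treatment (400 relabellings, smallest p 0.005), calls of 6 against 6 libraries by two-sided Fisher's exact test (smallest p 0.00216), and p-values adjusted by Benjamini-Hochberg over all regions tested. Scripts were tested on simulated data. The work used scipy 1.17.1, pandas 2.3.3, numpy 2.4.6 and matplotlib 3.10.9 in Python 3.11.15.

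The members, gene lists, tests and alternatives were chosen with earlier results of these data known. Named regions are those gained or lost in a comparison, those within 1 kb of an end of a member gene, the 5 with the highest mean percentile and those with the smallest p in a test of 6 against 6 libraries. The regions near Il24, Il20 and Il19 and the one 17.5 kb upstream of Mapkapk2 fall outside this rule and were named after their values had been seen. The domain, the tiles of 500 bp and merging without Nur77 LPS replicate 1 were added after the data had been seen. Alternatives were equal-length lists, only the strongest 20000 peaks, only peaks at a -log10 q of 5 or more, coverage of at least 50% of a region, regions in 3 or more lists, windows of 20 and 100 kb, ranking by fold, leaving out each library, and a replicate block. Same-numbered libraries did not deviate together (correlations from -0.117 to 0.156 in 18 pairs, against -0.152 to 0.16 in 36 other pairs), so numbers were not used to pair samples. Exons, introns and sequences under the peaks were not used here.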

Additional observations from a re-analysis of the deposited data

How the results depend on the processing

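Peak lists hold no counts, so a region without a call may be open below the reach of a shallow list, and calls of small peaks move with depth. Directions of the length under peaks in the domain held in every setting tried. With the strongest 20000 peaks per list, its LPS difference was 17718 bp in place of 26548 bp, and without 1 library it ran from 24568 to 28346 bp. The line difference there ran from 2166 to 5943 bp and the difference of responses from 1887 to 9442 bp without 1 library. Merging without Nur77 LPS replicate 1 gave 37 regions, the widest 27736 bp.

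The LPS gains in the GFP line were 1 in equal-length lists, 4 when peaks had to cover at least 50% of a region, 1 within 20 kb, and 2 to 3 without 1 library. In the Nur77 line they were 1, 1 with the 50% rule, 0 among the strongest 20000 peaks, and 2 to 4 without 1 library. Nur77 against GFP gained 1 region in each treatment among the strongest 20000 peaks, and 0 to 1 after LPS without 1 library. Its untreated loss was 0 in equal-length lists, among the strongest 20000 peaks, with the 50% rule and within 20 kb. Its loss after LPS was 0 in equal-length lists, among the strongest 20000 peaks and within 20 kb, and 1 to 2 without 1 library.

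The LPS difference in regions called per library was 2.67 in equal-length lists (exact permutation, adjusted p = 0.02). It was 5.17 with a -log10 q of at least 5 (exact permutation, adjusted p = 0.06) and ran from 3.5 to 6.75 without 1 library. The line difference of -2.5 turned to 0.667 in equal-length lists, 2 among the strongest 20000 peaks (exact permutation p = 0.03), 0.00236 as percent of called regions and 2649 as bp covered, and ran from -3.75 to -0.5 without 1 library. The difference of responses turned to -2.67 among the strongest 20000 peaks and -0.00126 as percent, and ran from -2.17 to 4.33 without 1 library. The cause was not tested.

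Fisher's exact test for LPS passed 1 of the 3 regions tested in equal-length lists, where 658 of 10396 regions of the genome passed. It passed 0 of 3 among the strongest 20000 peaks, where 581 of 5341 passed. At a -log10 q of at least 5 it passed 0 of 9, where 0 of 18077 passed. For ranks, regions higher with LPS were 0 in the lists as deposited, 1 among the strongest 20000 peaks and 3 to 4 without 1 library, and those lower were 0 in the lists as deposited and 0 to 1. Those higher in Nur77 were 0 in the lists as deposited, among the strongest 20000 peaks, and without any 1 library. With a replicate block the LPS difference in regions called was 5.5 with p = 0.0625 by exact sign flips of 6 pairs, and 0 regions passed in rank in either direction or for the line, where 0.03125 is the smallest p the block allows.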

Other observations

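Another wide domain lies on the same chromosome, 142.8 kb beyond the start of Mapkapk2 and outside the window of the cluster. The region chr1:131240688-131261725 overlaps Rassf5 and Ikbke, the latter the gene of the kinase IKK-epsilon, which acts in innate immune signalling. Its covered length was 11765 to 20307 bp in the 6 LPS libraries and 3451 to 7493 bp in the 6 untreated ones. The mean increase of 13058 bp was the 4th largest of all 76042 regions, where the domain between Il10 and Mapkapk2 ranked 1st. It was picked out after the ranking had been seen and was not tested.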
